A study of Mus musculus with 48 samples.

Results

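Ribosome footprints were measured around the day in mouse liver, and genes whose ribosome load had 2 peaks in 24 h were sought in the 24 footprint libraries, which make up 24 of the 48 libraries of the series. The other 24 libraries hold total RNA of the same lysates and serve as the comparison. All libraries came from livers of male C57BL/6JRj mice, 11 to 12 weeks old, with no genetic change or drug treatment, kept for 2 weeks under 12 h of light and 12 h of darkness and sampled under that schedule. Samples were taken at 12 zeitgeber times (ZT, hours after lights on), from ZT0 to ZT22 in steps of 2 h, with 2 pools per time and the livers of 2 mice in each pool. Each time was thus sampled on a single daily cycle and from different animals. In whole-liver lysates, fewer cells of a type and less RNA per cell cannot be told apart.

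A ribosome footprint is the stretch of mRNA shielded by a ribosome from nuclease digestion, so the number of footprints on a gene reports how many ribosomes sit on its transcripts. Total RNA reports the transcripts themselves. In mouse liver, a set of transcripts with periods near 12 h has been described, and many of them encode chaperones of the endoplasmic reticulum (ER) and other parts of the unfolded protein response, in which the sensors IRE1, PERK and ATF6 raise the folding and disposal capacity of the secretory pathway. Cytosolic heat shock genes are driven by HSF1 when unfolded proteins accumulate in the cytosol, and the clock genes follow the daily feedback loop of the CLOCK and BMAL1 proteins and their repressors.

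The listed genes took an estimated 13 to 44.7 M reads per footprint library (median 18.2 M), and an estimated 3.68 to 26.0 M per total RNA library (median 12.2 M). Hepatocyte markers were abundant in every library, with summed levels of 97277 to 146133 RPKM (reads per kilobase of gene, scaled to library size) in footprints. Markers of pancreatic acinar cells summed to 299.7 to 1632 RPKM in 6 footprint libraries (both pools of ZT2, replicate 1 of ZT4 and of ZT6, replicate 2 of ZT8 and of ZT16) and to 4.35 to 40.6 RPKM in the other 18. Of 11 acinar markers tested, 0 had a called 12 h part and 1 an unadjusted p under 0.05 by limma, while their fitted 12 h ranges had a median of 3.14 log2. The counts, most list counts and the calls of genes named by rule are also given without these 6 pools.

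A curve with a 24 h and a 12 h cosine was fitted to log2(RPKM + 0.1) of each gene, and the 12 h part was tested with limma's moderated F test in the 9445 genes that averaged at least 1 RPKM in both assays. In footprints, 424 genes (4.49% of those tested) had a 12 h part at a Benjamini-Hochberg adjusted p under 0.05, which is what "called" means from here on. The 24 h part was called in 4578 genes (48.5%). A 12 h part can also arise as an overtone of a daily curve that is not a plain cosine, so the fitted curves were read for their shape. Of the 424 genes, 265 (2.81% of those tested) had 2 maxima with the smaller one at least 0.1 log2 above the higher dip, and these are called two-peaked. Another 54 genes had 1 maximum and 105 had a second maximum shallower than that, together 1.68% of the genes tested.

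The 12 h part of the two-peaked genes was modest in most of them. Its peak-to-trough fold had a median of 1.38 (quartiles 1.29 and 1.59, range 1.14 to 5.55), against a median of 1.13 over all genes tested. It reached 1.5-fold in 93 genes and 2-fold in 18. Without the 6 pools with pancreatic transcripts, 29 genes were called and 17 were two-peaked. The median 12 h range of the same 265 genes was 0.46 log2 (0.459 without the pools). That range was refitted with a free phase, so it cannot be negative and spread between fewer pools can widen it. It therefore does not show whether the 12 h part was kept. Ranges of named genes along the phase fitted with all pools are given below. Of those 29 genes, 28 were among the 424. Leaving out 1 pool at a time gave between 226 and 599 called genes, as detailed under the dependence on processing.

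The 12 h part was wider than the 24 h part in 163 of the 265 two-peaked genes, and 194 of the 265 (73.2%) were also called at 24 h. The higher of the 2 peaks fell in the dark in 152 genes and in the light in 113. At the 2 sampled times nearest the fitted peaks and the 2 nearest the dips, the 4 peak pools were all above the 4 trough pools in 143 of the 265 genes in footprints and in 70 in total RNA. For both assays these times were read from the footprint fit, in genes chosen on footprints, which favours footprints. The counts are thus a description and do not compare the assays. The share over all genes tested was not computed. Pool values of two-peaked genes are given at these 4 times.

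Peak times gathered around 2 phases. With bounds drawn after seeing the distribution, 135 genes (50.9%) had 12 h peaks between ZT0.5 and ZT5.5 and again between ZT12.5 and ZT17.5, which is early in the light and early in the dark. Their median 12 h fold was 1.44 in footprints and 1.38 in total RNA, and the higher peak was in the dark in 112 of them. A second group of 103 genes (38.9%) peaked between ZT7 and ZT11 and between ZT19 and ZT23, late in each phase. Their median fold was 1.33 in footprints and 1.28 in total RNA, and 27 of them had the higher peak in the dark. The remaining 27 genes lay between these windows.

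**Figure D1:**
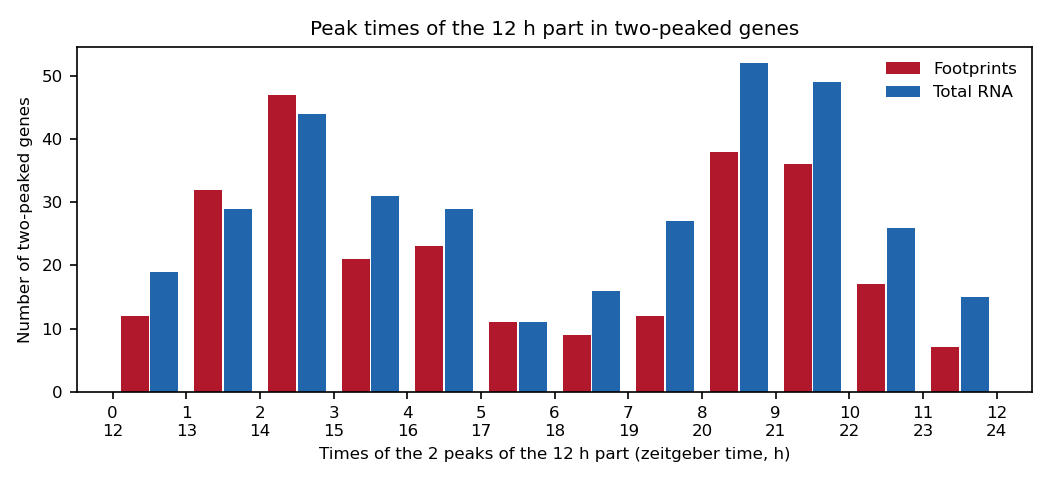
Number of two-peaked genes (vertical axis) by the hours at which the 12 h part peaks (horizontal axis, zeitgeber time, both daily peaks written under each mark), for footprints (265 genes, left bar) and total RNA (348 genes, right bar). Both assays show a group near ZT2 and ZT14 and a group near ZT9 and ZT21.

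The heat shock and ER chaperone lists led by share of members called. Of 20 cytosolic heat shock genes tested, 11 were called in footprints (55.0%, against 4.49% of all genes) and 10 were two-peaked, and of 25 ER chaperones and folding enzymes, 9 were called (36.0%) and 7 were two-peaked. The median 12 h range was 0.61 log2 in the heat shock list and 0.28 in the ER list, against 0.18 over all genes tested. Next by share were mitochondrially encoded genes with 4 of 12 called (33.3%), clock genes with 5 of 16 (31.2%) and ER-associated degradation with 5 of 18 (27.8%). Enzymes of nucleotide sugar and glycosylation had 3 of 17 called (17.6%). Translocon and signal peptide genes had 3 of 22 called (13.6%) and coat proteins of vesicles between ER and Golgi 3 of 29 (10.3%). The called members of the 6 lists of folding, degradation, glycosylation and secretory transport peaked within the early group's hours or, for Hspb1, at their edge. Without the 6 pools with pancreatic transcripts, 3 heat shock genes (Hspa1b, Hspa4l and Dnajb4) and 1 ER chaperone (Dnajb9) were called, and 0 genes of the degradation, glycosylation, translocon and coat protein lists, with 29 genes called in all. These lists were chosen with earlier results of these data known.

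**Figure D2:**
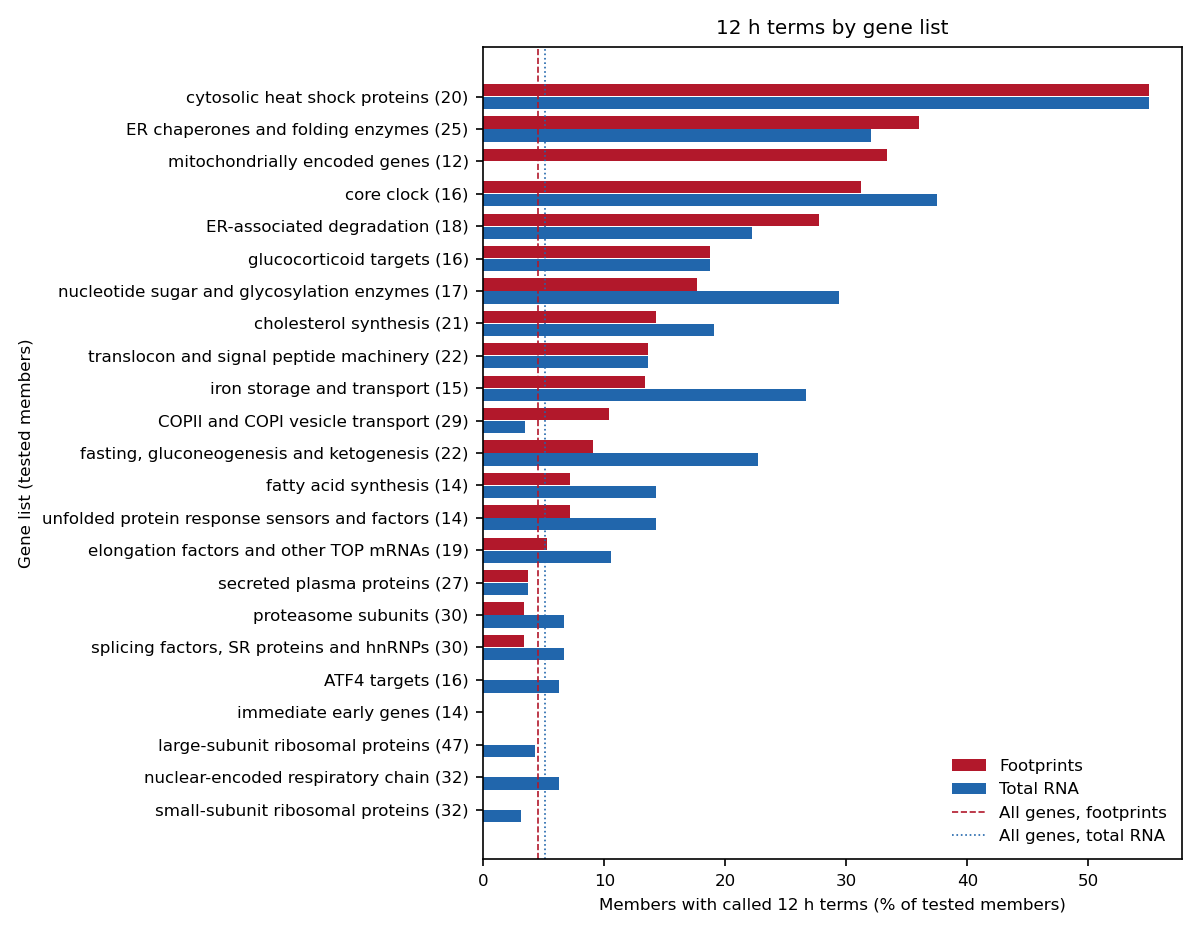
Share of the tested members of each gene list with a called 12 h part (horizontal axis, percent; number tested in brackets), for footprints (upper bar) and total RNA (lower bar), with the share over all genes as vertical lines (4.49% and 5.05%). The heat shock list reached 55.0% in both assays, and mitochondrially encoded genes 33.3% in footprints and 0% in total RNA.

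ER chaperone promoters are where a regulatory sequence can be set beside these curves. The ER stress response element, which NF-Y and ATF6 are known to bind, was searched as CCAAT and CCACG with 9 free bases between them on both strands of RefSeq promoter windows (250 bases before to 50 after the start site, GRCm38.p6), a motif chosen after the results were seen. It was found in 13 of 7500 windows of tested genes (0.173%), in 7 of 20 windows of the ER list (35.0%) and in 4 of 6 windows of its called members (66.7%). A match of each gene is shown in the direction of the motif, with its fixed letters in capitals, first for the called genes Hspa5 (chr2:34772025-34772043, plus strand), Creld2 (chr15:88819520-88819538, minus strand), Canx (chr11:50325800-50325818, minus strand) and Dnajc3 (chr14:118937827-118937845, plus strand), then for 3 genes that were not called.
Hspa5: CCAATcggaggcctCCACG
Creld2: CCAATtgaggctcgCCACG
Canx: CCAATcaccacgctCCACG
Dnajc3: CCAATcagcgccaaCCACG
Hsp90b1: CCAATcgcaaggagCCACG
Pdia6: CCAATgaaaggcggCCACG
Calr: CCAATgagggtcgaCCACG
The 250 bases before the start site of Creld2, the ER chaperone with the widest 12 h range among those called, are given as an example in the direction of the gene (chr15:88819396-88819645, plus strand), with the element in capitals on the opposite strand.
Creld2 promoter: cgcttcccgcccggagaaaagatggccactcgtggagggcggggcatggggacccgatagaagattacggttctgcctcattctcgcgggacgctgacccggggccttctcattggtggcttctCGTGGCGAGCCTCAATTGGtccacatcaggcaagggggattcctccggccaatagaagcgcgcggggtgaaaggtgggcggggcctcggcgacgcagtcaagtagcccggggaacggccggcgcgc
The element was held by 4 called members and by 3 that were not called. The 12 h fold was 2.85 in Creld2, 1.77 in Hspa5, 1.35 in Dnajc3 and 1.17 in Canx, which were called. It was 1.33 in Hsp90b1, 1.19 in Pdia6 and 1.17 in Calr, which were not. Among the 135 two-peaked genes of the early group, 2 of 107 windows held it (1.87%).

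Hspa5 (chr2:34771970-34777547, plus strand) encodes BiP, the main Hsp70 chaperone of the ER lumen. Its footprints stood at 1047 and 907 RPKM at ZT2, 587 and 546 at ZT8, 889 and 1009 at ZT16 and 475 and 475 at ZT22. In total RNA of the same pools it stood at 873 and 692 RPKM at ZT2, 494 and 381 at ZT8, 764 and 826 at ZT16 and 368 and 362 at ZT22. In both assays the pools of ZT2 and ZT16 were all above those of ZT8 and ZT22. The fitted footprint maxima were at ZT15.4 and ZT2.4, and the 12 h fold was 1.77 (95% interval 1.37 to 2.28, limma adjusted p = 0.0254) in footprints and 1.91 (1.49 to 2.44, adjusted p = 0.00947) in total RNA. The 24 h part of its footprints was not called (1.42-fold, adjusted p = 0.061). The footprint call was lost without replicate 1 of ZT2, of ZT14 or of ZT22, where the adjusted p reached at most 0.0545.

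Both pools of ZT2 held pancreatic transcripts (acinar markers summed to 847 and 1632 RPKM). ZT2 is the sampled time nearest the light-phase peak of Hspa5, Creld2 and Dnajb9. It has no pool without such transcripts for comparison, and the fit without the 6 pools has no pool of ZT2. At ZT4, 1 of the 2 pools held pancreatic transcripts (replicate 1), and Hspa5 footprints were 945 RPKM in it and 475 in the other. At ZT6 the pool with pancreatic transcripts was also replicate 1, and there the order was turned, with 392 RPKM against 581. Without the 6 such pools the 12 h range of Hspa5 was 0.63 log2 (adjusted p = 0.266) and that of Creld2 1.23 (adjusted p = 0.222), and both calls were lost. The same setting kept the call of Dnajb9, with a range of 1.2 log2 and an adjusted p of 0.0497. Of 37 called genes named by rule, 11 kept their call without these pools and 26 lost it, with fewer samples in the fit. Along the phase fitted with all pools, the 12 h range without and with the 6 pools was 1.06 and 1.01 log2 in Sgk2 (adjusted p without them 0.0271) and 0.80 and 0.90 log2 in Hspa4l (adjusted p = 0.026), which kept their calls. It was 0.33 and 0.39 log2 in Pex19 (adjusted p = 0.0771), 0.94 and 1.05 log2 in Hsp90aa1 (adjusted p = 0.0736), 0.89 and 0.95 log2 in Uap1 (adjusted p = 0.0881) and 1.17 and 1.41 log2 in Hsph1 (adjusted p = 0.186), which did not, all by limma. Calls were likewise lost in Manf (adjusted p = 0.237), Ero1l (0.083), Edem1 (0.139), Edem3 (0.179), Ubxn4 (0.266), Ube2j1 (0.209), Stip1 (0.136), Eif1a (0.096), Slc30a5 (0.0914), Btg3 (0.0566), Rcan1 (0.085) and Ngef (0.0827). The part of the pancreatic transcripts in the calls was not tested further.

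Creld2 (chr15:88819646-88826683), a disulfide isomerase-like protein secreted under ER stress, had 77.4 and 60 RPKM at ZT2, 32.3 and 20.2 at ZT8, 62.8 and 96.0 at ZT16 and 21.3 and 19.9 at ZT22 in footprints. Its total RNA read 138 and 120 RPKM at ZT2, 63.0 and 35.8 at ZT8, 109 and 165 at ZT16 and 48.4 and 40.0 at ZT22. The peak pools again lay above the trough pools in both assays, with a 12 h fold of 2.85 (1.91 to 4.24, limma adjusted p = 0.0126) in footprints and 2.75 (1.89 to 3.99, adjusted p = 0.00907) in total RNA. The difference in range along the footprint phase was 0.06 log2 (95% interval -0.12 to 0.24).

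Dnajb9 (chr12:44205559-44210326), the ER co-chaperone ERdj4, peaked earlier, with fitted footprint maxima at ZT13.5 and ZT1.3. Footprints were 257 and 188 RPKM at ZT14, 135 and 132 at ZT2, 44.7 and 64.3 at ZT6 and 50.0 and 64.5 at ZT20. Total RNA was 160 and 127 RPKM at ZT14, 88.1 and 78.8 at ZT2, 34.3 and 45.8 at ZT6 and 32.1 and 38 at ZT20. Each peak pool stood above each trough pool, and the 12 h fold was 2.33 (1.74 to 3.10) in footprints and 2.38 (1.73 to 3.29) in total RNA. Manf, a secreted folding factor of the ER, followed Hspa5 with a fold of 2.00 (1.5 to 2.65, adjusted p = 0.0163 by limma) and maxima at ZT15.1 and ZT2.2. Ero1l, the oxidase that recharges disulfide isomerases, moved less, at 1.35-fold (1.21 to 1.51, adjusted p = 0.00838).

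Other called ER chaperones were Pdia4 (1.38-fold), Hyou1 (1.63-fold), Canx (1.17-fold) and Dnajc3 (1.35-fold). The last pair had too shallow a second maximum to be two-peaked. Hsp90b1, the ER paralog of Hsp90, missed the threshold with a fold of 1.33 (1.15 to 1.55, limma adjusted p = 0.0552). Its fitted maxima were at ZT17.0 and ZT3.8. Its footprints were 760 and 478 RPKM at ZT4, 458 and 480 at ZT10, 728 and 622 at ZT18 and 517 and 418 at ZT22, so that 1 pool of ZT4 overlapped those of the dips. Its total RNA was called (1.44-fold, adjusted p = 0.0402).

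Of 14 sensors and factors of the unfolded protein response, 1 was called in footprints (7.14%), namely Herpud1, which helps to hand ER proteins to the proteasome. It had 531 and 438 RPKM at ZT14, 250 and 202 at ZT2, 158 and 214 at ZT6 and 148 and 162 at ZT20, a 12 h fold of 1.72 with maxima at ZT13.2 and ZT1.6 (limma adjusted p = 0.0129). The dark-phase peak stood apart, and the pools of ZT2 overlapped those of ZT6. Xbp1, the transcription factor that IRE1 activates by splicing, ranged between 79.1 and 135 RPKM over the 24 footprint pools. Its 12 h fold was 1.05 (upper limit 1.25, adjusted p = 0.899) in footprints and 1.06 (upper limit 1.28) in total RNA. Gene-level RPKM does not separate its spliced from its unspliced mRNA.

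In ER-associated degradation, Edem1, a lectin that routes misfolded glycoproteins to disposal, had 31.6 and 30.4 RPKM at ZT2, 18.4 and 20.9 at ZT10, 32.0 and 29.7 at ZT16 and 23.8 and 27.2 at ZT22. Peak and trough pools did not overlap, and the fold was 1.30 (1.19 to 1.41, limma adjusted p = 0.00399). Without the 6 pools with pancreatic transcripts its range was 0.29 log2, against 0.38 with them, and the call was lost (adjusted p = 0.139). Edem3 and Ubxn4 were 1.36-fold each, Ube2g2 1.45-fold and Ube2j1 1.2-fold. The first of these peaked earlier than the rest, with its 12 h phase at ZT1.78. Ube2j1 had a shallow second maximum and lost its call without any of 5 single pools.

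Uap1 (chr1:170141938-170174957) and Gfpt1 are enzymes of the hexosamine pathway, which makes the sugar donor for N-glycans. Uap1 footprints were 26.5 and 28.0 RPKM at ZT14, 20.6 and 19.7 at ZT2, 15.7 and 13.2 at ZT8 and 11.0 and 11.1 at ZT20. The 12 h fold was 1.93 (1.57 to 2.36, limma adjusted p = 0.00273) in footprints and 1.56 (1.36 to 1.80) in total RNA. In a fit paired by pool the difference in range was 0.31 log2 (95% interval 0.11 to 0.52). A difference between the assays was not called after adjustment over all genes. Gfpt1 was 1.78-fold (adjusted p = 0.00846), and its 24 h part was not called (1.18-fold, adjusted p = 0.35).

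The widest 12 h range of all two-peaked genes was that of a cytosolic heat shock gene. Hspa1b (chr17:34956436-34959238), the stress-inducible Hsp70, had 26.3 and 23.4 RPKM at ZT14, 7.31 and 2.22 at ZT2, 1.59 and 2.85 at ZT8 and 3.14 and 1.64 at ZT20 in footprints. In total RNA it had 72.9 and 60.1 RPKM at ZT14, 21.4 and 10.1 at ZT2, 4.93 and 9.62 at ZT8 and 6.39 and 8.58 at ZT20. The dark-phase peak stood far above the rest, and 1 footprint pool of ZT2 overlapped the troughs, while total RNA did not overlap. At ZT0, before the fitted maximum, footprints were 12.1 and 17.0 RPKM. The 12 h fold was 5.55 (2.79 to 11.0, limma adjusted p = 0.0142) in footprints and 5.44 (2.79 to 10.6, adjusted p = 0.0113) in total RNA, with fitted footprint maxima at ZT14.2 and ZT1.5. Its near-identical neighbour Hspa1a was not analysed here, and reads shared between the 2 copies make the level uncertain. Without the 6 pools with pancreatic transcripts the range was 3.55 log2 (2.47 with them) and the call was kept.

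Hsph1, an Hsp110 that recharges Hsp70, had 63.9 and 82.8 RPKM at ZT16, 54.4 and 36.3 at ZT2, 20.1 and 13.9 at ZT8 and 23.1 and 15.9 at ZT22, with no overlap. The 12 h fold was 2.67 (1.85 to 3.84, limma adjusted p = 0.0108), and the 24 h fold was wider, at 2.99. Hsp90aa1 (chr12:110690605-110702728), the inducible cytosolic Hsp90, peaked later, with maxima at ZT17.1 and ZT2.9 and dips at ZT9.6 and ZT23.4. It had 353 and 350 RPKM at ZT18, 257 and 173 at ZT2, 99.6 and 75.3 at ZT10 and 211 and 204 at ZT0 in footprints. Total RNA was 310 and 362 RPKM at ZT18, 227 and 156 at ZT2, 79.0 and 66.7 at ZT10 and 195 and 195 at ZT0. The dip between the dark-phase and the light-phase peak was almost absent at ZT0, where the pools of both assays lay between those of ZT2. The 12 h fold was 2.06 (1.66 to 2.56, adjusted p = 0.00191) in footprints and 2.28 (1.77 to 2.93, adjusted p = 0.00263) in total RNA. The 24 h fold was wider, at 2.70 in footprints and 2.88 in total RNA.

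Hspa4l, another Hsp110, was the two-peaked gene with the second smallest p, at 1.86-fold (1.57 to 2.2, limma adjusted p = 0.000973). Its 24 h fold was wider, at 2.48. It had 19.3 and 19.0 RPKM at ZT18, 16 and 9.75 at ZT2, 4.95 and 5.90 at ZT10 and 11.2 and 10.7 at ZT0, so that here too the pools of ZT0 lay between those of ZT2. The co-chaperones Stip1, which links Hsp70 to Hsp90, and Dnajb4 were 1.53-fold and 1.52-fold. Dnajb4 had 56.8 and 53.0 RPKM at ZT14, 27.4 and 23.0 at ZT2, 19.7 and 22.3 at ZT6 and 25.4 and 20.5 at ZT22, and its light-phase pools overlapped those of ZT22. Hspa8, the constitutive Hsp70, missed the threshold in footprints (2.15-fold, adjusted p = 0.0564) and was called in total RNA (1.90-fold, adjusted p = 0.00934). Hsf1 itself had a fold of 1.03 (adjusted p = 0.961), and the mitochondrial chaperonin Hspd1 1.08 (adjusted p = 0.55).

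A heat shock element, searched as GAA, TTC and GAA with 2 free bases between each on both strands of the same RefSeq windows, was found in 42 of 7500 windows (0.56%), in 4 of 14 windows of the heat shock list (28.6%) and in 2 of 10 windows of its called members (20.0%). A match of each of the 2 called genes is shown in the direction of the motif with its fixed letters in capitals. They are Hsph1 at chr5:149636288-149636300 (plus strand, after the start site) and Chordc1, an Hsp90 co-chaperone, at chr9:18292263-18292275 (plus strand, 1 of 3 matches).
Hsph1: GAActTTCcaGAA
Chordc1: GAAcgTTCggGAA
Their 12 h folds were 2.67 and 1.68. The other windows with a match belong to Hspd1 and Hspe1, neighbouring genes on chromosome 1 that were not called (folds of 1.08 and 1.06). Matches in these windows, at chr1:55088064-55088076 and chr1:55088059-55088071, overlap, so the windows do not hold separate stretches.

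**Figure D3:**
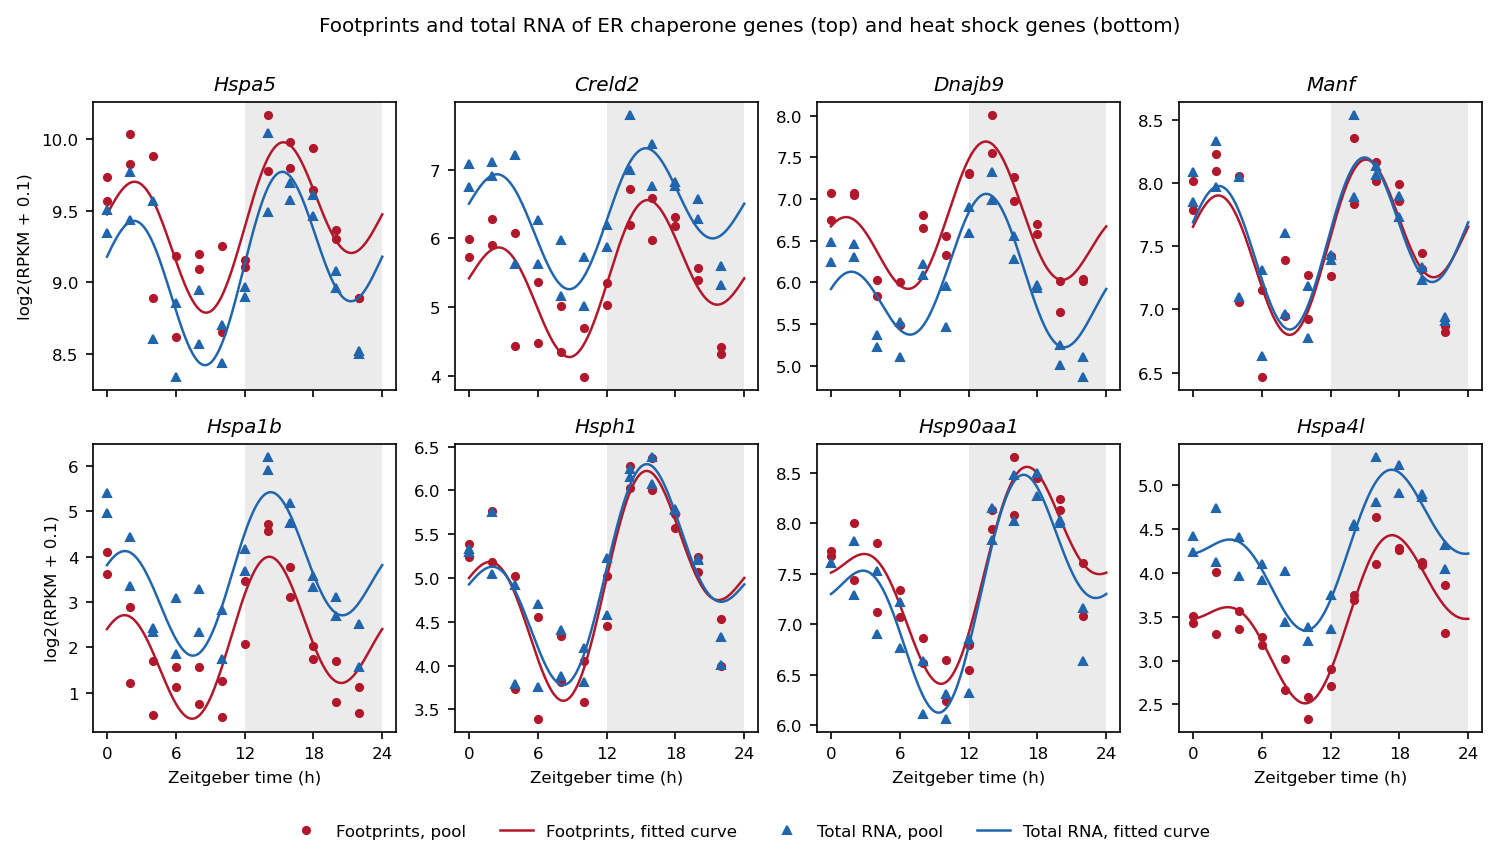
Levels of 4 ER chaperone genes (top) and 4 heat shock genes (bottom) as log2(RPKM + 0.1) against zeitgeber time, with footprints as circles and total RNA as triangles, 1 mark per pool, and the fitted 24 h plus 12 h curves as lines; grey marks the dark hours. Each footprint curve has a maximum early in the light and a higher one in the dark, with 12 h folds between 1.77 (Hspa5) and 5.55 (Hspa1b).

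Genes outside these lists shared the early phases. Of the 12 two-peaked genes with the smallest p, the initiation factor Eif1a was 1.67-fold (1.42 to 1.95) with 89.2 and 85.5 RPKM at ZT2, 30.5 and 46.2 at ZT10, 79.6 and 69.3 at ZT16 and 51.3 and 59.8 at ZT20. The zinc transporter Slc30a5, of the early secretory pathway, was 1.40-fold, the histone chaperone Spty2d1 1.43-fold and the antiproliferative factor Btg3 2.18-fold (1.68 to 2.84, limma adjusted p = 0.0058). The 24 h fold of Slc30a5 was 1.44. Btg3 had 5.34 and 5.32 RPKM at ZT14, 4.03 and 3.17 at ZT2, 1.40 and 2.78 at ZT8 and 2.21 and 3.10 at ZT22, with no overlap. Rcan1, an inhibitor of calcineurin, had 49.0 and 41.8 RPKM at ZT14, 11.0 and 8.45 at ZT2, 5.80 and 10.4 at ZT6 and 8.89 and 7.84 at ZT22 (2.13-fold, adjusted p = 0.00836 by limma). Its 24 h fold was wider, at 3.82. Its dark-phase peak stood apart, and its light-phase pools overlapped the troughs.

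Lasp1, an actin-binding scaffold protein, fell outside both phase groups, with maxima at ZT4.2 and ZT19.7. It had 109 and 93.1 RPKM at ZT4, 47.2 and 41.5 at ZT12, 99.7 and 111 at ZT20 and 106 and 103 at ZT0. The dip around lights off, ZT12, was deep, while at the second fitted dip, ZT23.8, the nearest pools were as high as those of both peaks. The 12 h fold was 1.5 (1.34 to 1.68, limma adjusted p = 0.000973), and the 24 h fold was wider, at 2.06.

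The late group was led by Sgk2 (chr2:162987330-163014127), a kinase of the serum and glucocorticoid-regulated family that liver and kidney express. Its footprints were 29.3 and 29.3 RPKM at ZT8, 12.5 and 7.74 at ZT14, 24.2 and 26.3 at ZT20 and 20.2 and 21.3 at ZT2. Total RNA was 35.2 and 32.1 RPKM at ZT8, 13.3 and 10.8 at ZT14, 30.1 and 27.9 at ZT20 and 23.2 and 27.9 at ZT2. The dip at ZT14 was deeper than the one at ZT2. Peak and trough pools did not overlap in footprints, and in total RNA a pool of ZT2 reached those of ZT20. The 12 h fold was 2.02 (1.68 to 2.43, limma adjusted p = 0.000973) in footprints and 1.96 (1.59 to 2.42, adjusted p = 0.00263) in total RNA. The 24 h fold was 2.14 in footprints and 2.35 in total RNA.

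Pex19 (chr1:172126755-172136493), the carrier of newly made peroxisomal membrane proteins, peaked near both changes of the light, at ZT10.0 and ZT22.1. Footprints were 67.2 and 62.3 RPKM at ZT10, 43.4 and 43.4 at ZT16, 59.8 and 57.2 at ZT22 and 47.6 and 51.0 at ZT4. Total RNA was 82.4 and 72.3 RPKM at ZT10, 56.1 and 57.9 at ZT16, 79.2 and 78.2 at ZT22 and 60.6 and 67.9 at ZT4. Peak and trough pools did not overlap in either assay, with a fold of 1.31 (1.21 to 1.41, limma adjusted p = 0.00121) in footprints and 1.28 (1.17 to 1.39, adjusted p = 0.00624) in total RNA. Ngef, a guanine nucleotide exchange factor, peaked at ZT10.7 and ZT21.0 (1.66-fold, adjusted p = 0.00399).

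Of 21 sterol synthesis genes tested, 3 were called (14.3%), all two-peaked. Msmo1, a demethylase of the pathway, was 1.41-fold with maxima at ZT8.6 and ZT21.0 (limma adjusted p = 0.0434), and Stard4, a carrier of cholesterol between membranes, was 1.37-fold with maxima at ZT9.5 and ZT19.8 (adjusted p = 0.0386). Both belonged to the late group.

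Among abundant transcripts of the late group, the lipid droplet protein Plin2 had 519 and 498 RPKM at ZT6, 195 and 158 at ZT14, 543 and 427 at ZT22 and 452 and 382 at ZT2 (1.49-fold, limma adjusted p = 0.0203). The dip at ZT14 was clear, and the pools of ZT2 overlapped those of ZT22. Apoa2, a major apolipoprotein of HDL, had 15050 and 17243 RPKM at ZT8, 11931 and 12905 at ZT14, 14966 and 15205 at ZT20 and 12454 and 13790 at ZT2 in footprints, with no overlap (1.32-fold, 1.17 to 1.5, limma adjusted p = 0.024). In total RNA Apoa2 missed the threshold (1.21-fold, adjusted p = 0.0958). It was the only called gene of 27 secreted plasma proteins tested (3.70%).

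Among the 54 called genes with a single maximum, the 24 h part had a median fold of 3.03 and the 12 h part of 1.40, and in 0 of them was the 12 h part the wider. The 4 with the smallest p were Arntl, Tef, Tubb2a and Dbp. Arntl, which encodes BMAL1, had 11.9 and 10.7 RPKM at ZT2, 0.389 and 0.449 at ZT12 and 12.0 and 10.6 at ZT22 in footprints, with a broad top across the turn of the cycle. Its 24 h fold was 23.3 and its 12 h fold 2.86 (2.15 to 3.82, limma adjusted p = 0.000973). Dbp, an output factor of the clock, stood at 40.1 and 59.8 RPKM at ZT10 and at 0.823 and 0.392 at ZT2, with a 24 h fold of 50.2 and a 12 h fold of 3.45 (2.42 to 4.91, adjusted p = 0.00126). Tef, its relative, and the beta-tubulin Tubb2a had 24 h folds of 8.56 and 9.31 and 12 h folds of 1.96 and 1.92. When the 6 pools with pancreatic transcripts were left out, Arntl (adjusted p = 0.026), Dbp (0.028) and Tubb2a (0.0271) kept their calls and Tef did not (0.0577), by limma.

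In the clock list as a whole, 5 of 16 genes were called (31.2%) and 1 of them, Cry2, was two-peaked, with maxima at ZT9.9 and ZT18.3 (1.51-fold, limma adjusted p = 0.0165). Cry2 had 15.1 and 8.34 RPKM at ZT10, 10.0 and 11.1 at ZT18, 9.99 and 8.84 at ZT14 and 4.92 and 4.89 at ZT2, so the pools between its maxima overlapped them. Per1 was called with 1 maximum (2.16-fold at 12 h and 12.8-fold at 24 h). Of the 5, 2 were called without the 6 pools with pancreatic transcripts, Arntl and Dbp. Nr1d1, the repressor REV-ERB alpha, had a wide 24 h part (59.1-fold) and a 12 h part that missed the threshold (1.79-fold, adjusted p = 0.148).

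**Figure D4:**
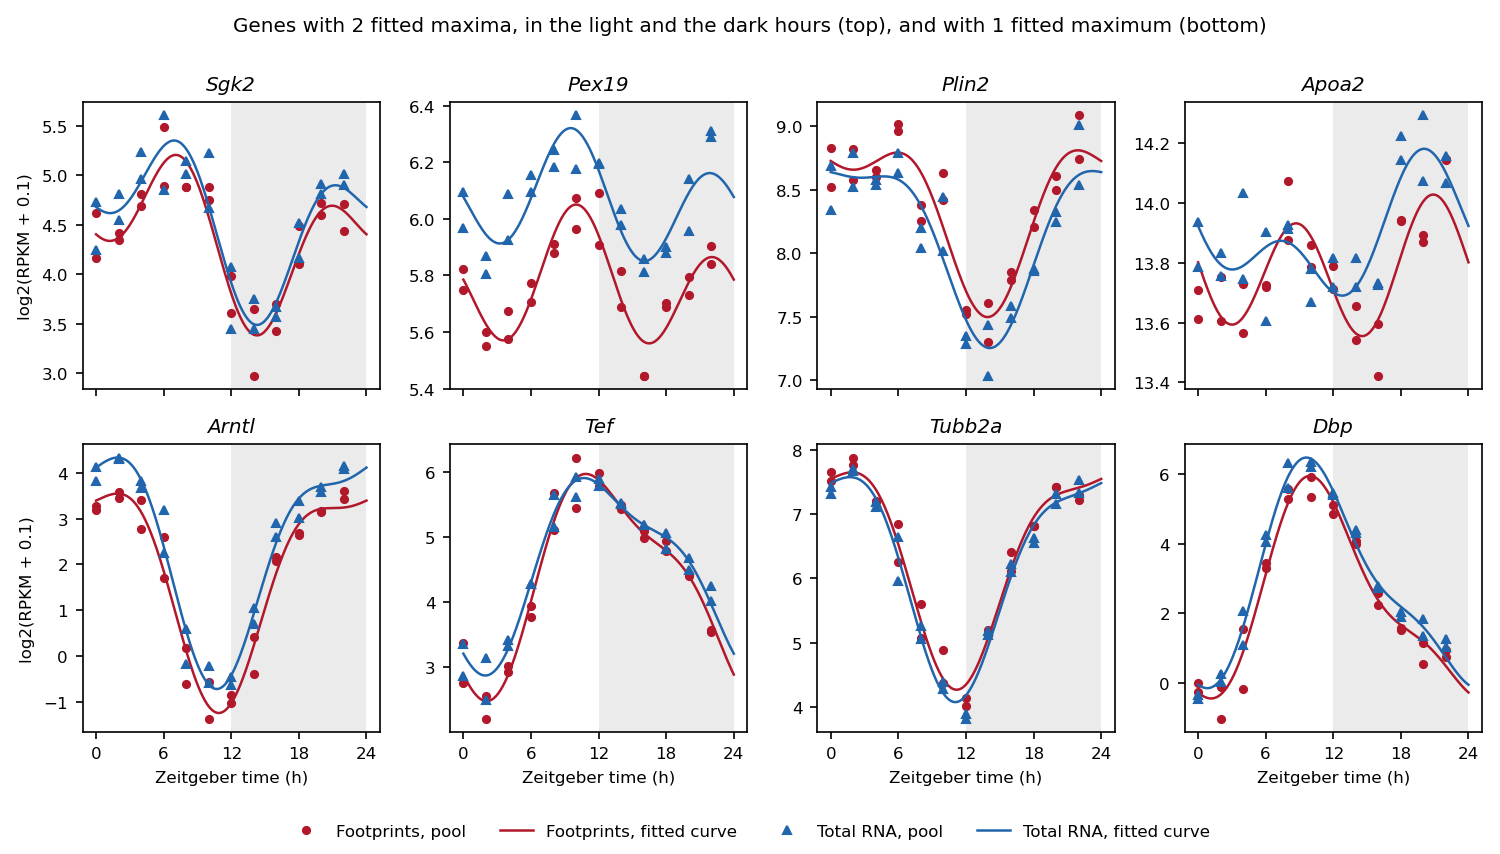
Levels of 4 two-peaked genes of the late group (top) and 4 called genes with a single maximum (bottom) as log2(RPKM + 0.1) against zeitgeber time, with footprints as circles and total RNA as triangles, 1 mark per pool, and fitted curves as lines; grey marks the dark hours. The upper footprint curves have 2 maxima, shallowest in Plin2, while those of Arntl, Tef, Tubb2a and Dbp have 1, with 24 h folds in footprints of 8.56 (Tef) to 50.2 (Dbp).

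Total RNA had a similar number of 12 h genes, 477 called (5.05%) and 348 two-peaked (3.68%). Genes called in both assays numbered 168, which is 39.6% of the footprint calls and 35.2% of the total RNA calls. Of the 265 genes two-peaked in footprints, 96 (36.2%) were called in total RNA and 86 were two-peaked there, while 195 had an unadjusted p under 0.05 and 243 had 2 fitted maxima at any p. Over all genes tested, 2495 (26.4%) had an unadjusted p under 0.05 in total RNA by limma. The share of all genes with 2 fitted maxima at any p was not computed, so the 243 are a description. In 59 of the 135 early genes and 29 of the 103 late genes total RNA was called.

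The timing of the 12 h part was close in the 2 assays. In the 168 genes called in both, the footprint peak minus the total RNA peak had a median of -0.05 h (quartiles -0.42 and 0.21 h), 152 genes (90.5%) lay within 1 h and the widest gap was 1.67 h. In the 265 two-peaked genes, which were chosen on footprints alone, 201 (75.8%) lay within 1 h and 247 (93.2%) within 2 h, where an even spread of phases would put 33.3%. The log2 ratio of the 12 h ranges, footprints over total RNA, had a median of 0.00 (quartiles -0.22 and 0.16) in the 168 genes. Both assays came from the same lysates, so pool-to-pool deviations are shared between them.

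**Figure D5:**
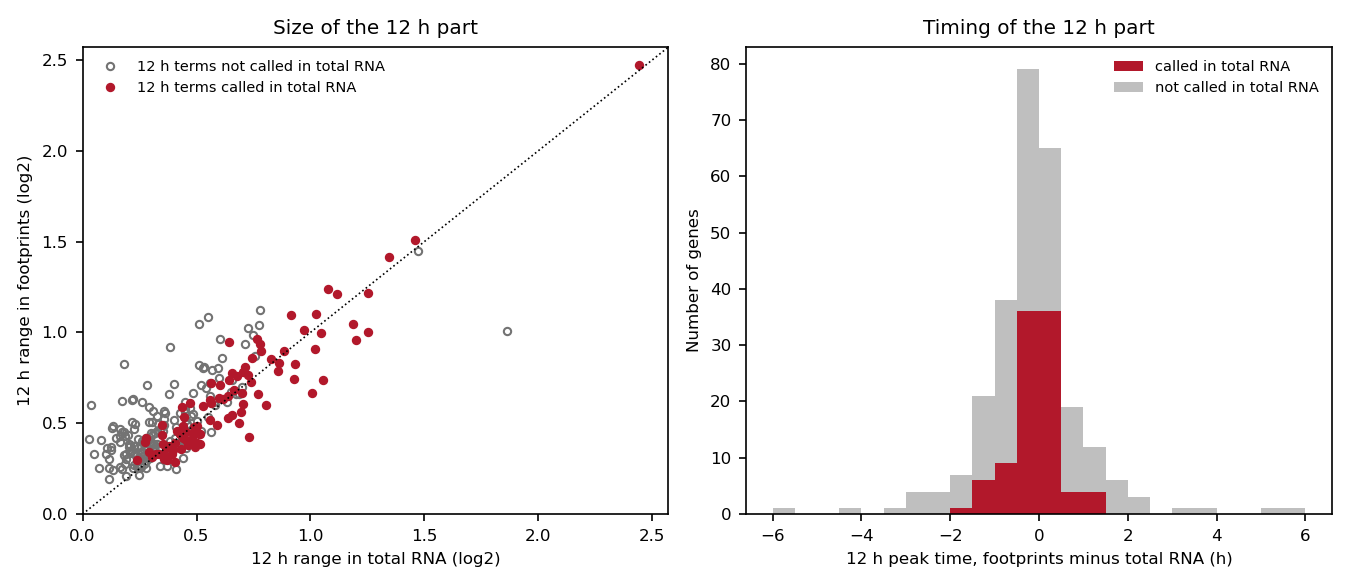
Left, 12 h range (log2) of the 265 two-peaked genes in footprints (vertical) against total RNA (horizontal), filled where total RNA was also called (96 genes), with the line of equal range dotted. Right, number of genes by the difference in 12 h peak time, footprints minus total RNA (h); 201 of the 265 lie within 1 h.

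The test of the difference itself, the interaction of assay with the 12 h part over all 48 libraries, called 0 of 9445 genes (0%). By limma, 466 genes (4.93%) had an unadjusted p under 0.05, and the smallest adjusted p was 0.504. Fitted on the log2 ratio of each pool, so that the 2 assays of a lysate were paired, it called 0 genes (0%), with 1001 genes (10.6%) at an unadjusted p under 0.05 and a smallest adjusted p of 0.223. In the same paired fit, the difference in 12 h range (footprints minus total RNA, along the footprint phase) was read for the 265 two-peaked genes, chosen on footprints. Its 95% interval lay above 0 in 54 of them and below 0 in 2, and the median difference was 0.10 log2. Since the genes were chosen on footprints, this is a description. Along the footprint phase, the range in footprints minus that in total RNA was -0.11 log2 (95% interval -0.24 to 0.03) for Hspa5, 0.03 (-0.47 to 0.53) for Hspa1b, -0.13 (-0.30 to 0.03) for Hsp90aa1, 0.04 (-0.17 to 0.26) for Sgk2 and 0.04 (-0.09 to 0.16) for Pex19.

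In 17 of the 265 two-peaked genes the total RNA had an unadjusted p over 0.5. Fbxl15, an F-box protein, had footprints of 5.38 and 4.89 RPKM at ZT4, 2.60 and 3.85 at ZT10, 6.88 and 7.86 at ZT18 and 4.24 and 5.01 at ZT0, so that the pools of ZT4 overlapped those of ZT0. Its total RNA was 3.10 and 2.65 RPKM at ZT4, 3.2 and 3.29 at ZT10, 3.81 and 3.92 at ZT18 and 3.99 and 2.88 at ZT0. The 12 h fold was 1.54 in footprints and 1.13 in total RNA. In the fit paired by pool the difference in range was 0.78 log2 (95% interval 0.39 to 1.18). The adjusted p of the interaction, which is not paired, was 0.913 by limma. For Grb2, the adaptor between growth factor receptors and Ras, the 12 h fold of footprints was 1.26 and that of total RNA 1.07. The interval of the difference in range was -0.04 to 0.53 log2. Both genes were picked from the 17 after their values were seen. Hist1h2ad, another of the 17, was 2.73-fold in footprints with 43.2 and 36.0 RPKM at ZT14, 18.3 and 22.5 at ZT2, 9.44 and 8.70 at ZT8 and 21.5 and 15.5 at ZT22, with overlap between ZT2 and ZT22, while its total RNA read between 0 and 23.5 RPKM. Replication-dependent histone genes have near-identical copies, so its values are uncertain.

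Mitochondrially encoded genes are translated on ribosomes of their own. Of 12 tested, 4 were called in footprints (33.3%) and 0 in total RNA, and 1 was two-peaked, mt-Atp8. The called 4, mt-Atp8, mt-Nd3, mt-Nd2 and mt-Cytb, had 12 h phases between ZT11.1 and ZT11.7 in footprints and between ZT4.77 and ZT6.17 in total RNA. For mt-Nd3, a subunit of complex I, footprints were 712 and 825 RPKM at ZT12, 238 and 175 at ZT2, 196 and 210 at ZT4 and 341 and 325 at ZT20, so the pools of ZT12 stood alone at the top. Its total RNA was 1818 and 1858 RPKM at ZT12, 1941 and 1962 at ZT2, 2002 and 1901 at ZT4 and 2464 and 2692 at ZT20, and lowest at ZT22 with 898 and 867. The interaction had an unadjusted p under 0.05 by limma in 12 of the 12 genes, where all genes tested gave 4.93%. Its adjusted p was 0.504 in mt-Nd3. The footprint calls of mt-Nd3, mt-Nd2 and mt-Cytb were each lost without most single pools, those of ZT12 included. With the 6 pools with pancreatic transcripts left out, mt-Atp8 kept its call (limma adjusted p = 0.0353) and the other 3 lost theirs. Nuclear copies of mitochondrial genes can share reads with them, which makes the levels uncertain.

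Ribosomal protein genes, whose mRNAs carry the TOP motif and are translated in step with feeding, showed wide 12 h ranges in footprints without calls. The median range was 0.41 log2 in 32 small-subunit genes and 0.42 in 47 large-subunit genes, against 0.14 and 0.15 in total RNA, and 0 of either list were called in footprints (0% each). At an unadjusted p under 0.05 by limma there were 5 and 8 genes in footprints, a smaller share than the 21.6% of all genes tested (2044), and 9 and 21 in the interaction, where all genes tested gave 4.93%. The ferritin subunits, which store iron, were alike: Fth1 had 806 and 955 RPKM at ZT6, 223 and 389 at ZT12, 760 and 793 at ZT20 and 867 and 648 at ZT2, and was highest at ZT22 with 1484 and 1282 RPKM, with a 12 h fold of 1.73 (1.28 to 2.35, limma adjusted p = 0.0712), and Ftl1 1.61 (1.18 to 2.19, adjusted p = 0.127). In total RNA their 12 h folds were 1.06 and 1.12. Ferritin genes have many processed copies, which makes their levels uncertain.

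At the threshold, S100a10 was the last gene called (adjusted p = 0.0497, 1.38-fold). A further cosine with an 8 h period called 0 genes in either assay (0% each), with 689 genes (7.29%) in footprints and 697 (7.38%) in total RNA at an unadjusted p under 0.05 and smallest adjusted p of 0.0611 and 0.0748 by limma.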

How the data were processed

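The values are RPKM per Ensembl gene as the authors deposited them, in 1 file for each library. Per the submitters' processing notes, CASAVA 1.82, cutadapt, Bowtie2 2.2.1, TopHat2 2.0.11, TopHat, Cufflinks 2.2.1 and edgeR were used, with the builds GRCm38.p2 and mm10. How gene lengths were set, how shared reads were counted and how libraries were scaled is not given in the sources used here. Footprint libraries had upper quartiles of 21.7 to 22.7 RPKM and total RNA libraries of 26.6 to 27.9 RPKM, so a change of all transcripts together would not be seen. Per the labels' protocols, cycloheximide was in the lysis buffer, RNase I trimmed the footprints, ribosomes were isolated on size exclusion columns and Ribo-Zero took out ribosomal RNA. Replicates are separate pools of animals.

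The footprint libraries list 10980 genes and the total RNA libraries list 11155, with 10829 in both. Names and gene coordinates came from GENCODE M21 (GRCm38), which named 11242 of 11306 identifiers, and promoter windows from RefSeq (GRCm38.p6). Depths were estimated from RPKM times coding length, where 70.5% to 87.0% of low values were whole multiples of 1 read (within 0.04 of a read). This was too few for a count test.

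Tests used R 4.3.3 with limma 3.58.1 (mean-variance trend, moderated F test, Benjamini-Hochberg adjustment over the 9445 genes averaging 1 RPKM or more in footprints and in total RNA), and tables and figures Python 3.11.15 with pandas 2.3.3 and matplotlib 3.10.9. Fits used log2(RPKM + 0.1), which understates the change of low genes. Curves were read every 0.1 h. Intervals of a difference in 12 h range between the assays come from the fit paired by pool. A 12 h fold is the peak-to-trough ratio of the 12 h cosine alone, with a 95% interval whose lower limit is not set under 1. The code was tested on simulated data.

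Genes were named by rule: the 12 two-peaked genes with the smallest p, the 8 with the widest 12 h range among those of at least 5 RPKM, the 6 leading genes called in the interaction (there were 0), the 4 single-maximum genes with the smallest p, the 4 members with the smallest p of each of the 5 lists with the largest shares called, 7 genes set beforehand (Xbp1, Hspa5, Hsp90b1, Fth1, Ftl1, Nr1d1, Dbp) and the genes at the threshold. Others were named after their values were seen. Some items are not reported here. The members and lists were chosen with earlier results of these data known.

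The 2 assays of a pool are paired by the shared lysate. As a check, their deviations from the time means correlated with r between 0.16 and 0.683 across genes, above 0.1 at 12 of 12 times. Replicate numbers do not pair pools of different times.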

Additional observations from a re-analysis of the deposited data

How the results depend on the processing

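The 424 footprint calls and 265 two-peaked genes kept within 1.5 times their number under both other pseudocounts (417 and 424 calls), no filter or one of 5 RPKM (404 and 383), rescaling by median or trimmed mean (418 and 414), no mean-variance trend (384), added 8 h terms (438) and without ZT18 (412). With the 12 h terms alone, where the daily rhythm enters the residual spread, footprints had 0 calls, total RNA 2 and both assays 0. A fold of at least 1.5 gave 141 footprint calls (93 two-peaked), 133 in total RNA (108), 64 in both and 1606 for the 24 h part of footprints. A threshold of 0.1 gave 876 (534), 1255 (857) and 410. Without the 6 pools with pancreatic transcripts there were 29 (17), 54 (43), 10 and 2594. Fewer samples enter this fit, and none of ZT2.

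Leaving out both pools of a time also moved the counts. Given as footprint calls (two-peaked), then total RNA calls (two-peaked), then both assays where these moved by over 1.5 times, they were 197 (132) and 846 (585) without ZT0. Alternatives for other times were chosen after seeing the data. They were 161 (94), 261 (192) and 63 without ZT2, 261 (172), 263 (195) and 88 without ZT6, 250 (165), 231 (178) and 77 without ZT12, 123 (67), 275 (193) and 55 without ZT14, and 159 (95), 296 (213) and 60 without ZT16. Without ZT20 footprints had 151 (93) and both assays 69. Without ZT22 the counts were 194 (115), 198 (129) and 63. Without ZT10 the two-peaked footprint genes numbered 171, and total RNA had 255 (186), with 83 in both. The cause was not tested.

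Leaving out 1 pool at a time gave 226 to 599 footprint calls, 135 to 397 two-peaked genes, 229 to 656 total RNA calls, 165 to 490 two-peaked there, 67 to 212 in both and 4245 to 4657 for the 24 h part. Footprint calls fell by over 1.5 times without ZT2 replicate 1 (235), ZT14 replicate 1 (259) or 2 (246), ZT16 replicate 1 (231) or 2 (230), ZT20 replicate 2 (226) or ZT22 replicate 1 (256). Of the genes named by rule, Pfkfb3 kept its call in 12 of 24 such fits, mt-Atp8 in 16, mt-Nd3 and mt-Nd2 in 7, mt-Cytb in 5 and S100a10 in 4. The interaction of assay and 12 h part called 0 genes in every setting. With the replicate block the footprint calls numbered 393 (245 two-peaked), and the interaction paired by pool called 0; the block changed no other call of a gene named by rule than those of mt-Cytb and S100a10. Same-numbered pools of different times correlated with a median r of 0.0152, over 0.1 in 12 of 66 pairs of times. A single daily cycle with 2 pools per time limits all of these counts.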

Other observations

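Of 15 genes of iron storage and transport, 2 were called in footprints (13.3%) and 4 in total RNA (26.7%). Tfrc, the transferrin receptor, had 22.1 and 27.8 RPKM at ZT14, 11.2 and 14.7 at ZT2, 13.8 and 8.78 at ZT8 and 8.01 and 6.18 at ZT22 in footprints, with a 12 h fold of 1.80 (limma adjusted p = 0.024) and 1.77 in total RNA. Its dark-phase peak stood apart, and the pools of ZT2 overlapped those of ZT8. Hfe2, the hemojuvelin co-receptor of hepcidin signalling, was 1.45-fold with maxima at ZT3.0 and ZT18.7. Its footprints were 8.63 and 10.7 RPKM at ZT2, 3.9 and 5.02 at ZT10, 9.14 and 8.57 at ZT18 and 7.83 and 8.90 at ZT22, so the pools of ZT22 overlapped the peaks. With the 6 pools with pancreatic transcripts left out, 0 genes of this list and of the glucocorticoid targets below were called.

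Among glucocorticoid targets, 3 of 16 were called (18.8%), and 1 of them was two-peaked. The transcription factor Zbtb16 was two-peaked, with 10.3 and 9.70 RPKM at ZT14, 4.21 and 4.68 at ZT0, 1.76 and 3.14 at ZT6 and 5.77 and 2.52 at ZT20 (2.36-fold, limma adjusted p = 0.0342), and a pool of ZT20 was above both pools of ZT0. Fkbp5, a co-chaperone of the receptor, was called with 1 maximum (1.65-fold at 12 h, 6.84-fold at 24 h). Outside this list, the two-peaked gene Pfkfb3 makes the activator of glycolysis. It had 14.2 and 16.5 RPKM at ZT12 and 6.35 and 4.28 at ZT0, against 1.83 and 2.24 at ZT4 and 3.31 and 1.93 at ZT20 (2.32-fold, limma adjusted p = 0.0386). The 24 h fold of Pfkfb3 was wider, at 6.71, and its smaller maximum stood 0.14 log2 above the higher dip. Its call was lost without the 6 pools with pancreatic transcripts (limma adjusted p = 0.142). Of the genes of fasting and ketogenesis, 2 of 22 were called in footprints (9.09%, against 4.49% of all genes) and 5 in total RNA (22.7%, against 5.05%). The lists of ATF4 targets, immediate early genes and nuclear-encoded respiratory chain had 0 called of 16, 14 and 32. At an unadjusted p under 0.05 by limma there were 2, 3 and 4 genes, where all genes tested gave 21.6%. The share of immediate early genes was near that of all genes, and those of the other lists were smaller. Proteasome subunits had 1 of 30 called (3.33%), and splicing factors 1 of 30 (3.33%). Fatty acid synthesis had 1 of 14 (7.14%) and elongation factors and other TOP mRNAs 1 of 19 (5.26%). Over all genes tested the share called was 4.49%. Without the 6 pools with pancreatic transcripts, 0 genes of the fasting, proteasome, splicing factor, fatty acid and elongation factor lists were called.

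Other motifs were searched in the same promoter windows, again chosen after seeing results. The unfolded protein response element TGACGTGG was in 76 of 7500 windows (1.01%), in 5 of 107 windows of early genes (4.67%) and in 0 of 82 windows of late genes. The E-box CACGTG was in 12.1% of all windows, 17.8% of the early and 13.4% of the late ones. The D-box TTATGTAA was in 0.747% of all windows and in 0 of 209 of the two-peaked genes.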
